A study of Homo sapiens with 4 samples.

Results

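The genes described are 9 genes of the MHC class I antigen presentation pathway, taken from a given list of symbols and found among 53777 Ensembl gene rows. They are the heavy chain genes HLA-B, HLA-C, HLA-E and HLA-F, the light chain gene B2M, the transporter genes TAP1 and TAP2, the tapasin gene TAPBP and the peptidase gene ERAP1. All 9 passed the filter on low values and were tested among 12953 genes. RNA was sequenced in NUGC3, an established human stomach cancer line, in 2 libraries with a MYC knockdown and 2 libraries of wild-type cells. MYC encodes a transcription factor of cell growth, and the sources used here do not say how its level was lowered. The labels do not say whether the 2 replicates of a group were grown apart. The p-values therefore rest on the spread between libraries, and that spread may be technical alone.

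MHC class I molecules show peptides from inside a cell to T cells and natural killer cells. The proteasome cuts proteins into peptides, the TAP transporter carries these into the endoplasmic reticulum, ERAP1 trims them, and tapasin helps to load them onto a heavy chain bound to beta-2 microglobulin. Interferons are known to raise transcription of many of these genes, and tumour cells often carry less class I on their surface than normal cells.

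Class I genes stood high in 1 of the 2 knockdown libraries. In MYC knockdown replicate 1, 8 of the 9 genes were more than 0.5 above the wild-type mean on the log2(FPKM + 1) scale, against 12.1% of all genes tested. In MYC knockdown replicate 2, 0 of the 9 were, against 9.88% of all genes. The 9 genes were chosen with earlier results of these data known, so these shares describe them and are no test. Past a difference of 1 there was 1 of the 9, HLA-B, in replicate 1 (2.10% of all genes) and 0 of the 9 in replicate 2 (2.06% of all genes). HLA-B showed the largest difference of the 9 in replicate 1, at 2.15 times the wild-type mean FPKM, and stood at 1.15 times in replicate 2. ERAP1 was the exception, with the higher of its knockdown values in replicate 2, at 1.31 times the wild-type mean. With both knockdown libraries in the fit, limma called 0 of the 9 genes at an adjusted p under 0.05.

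The libraries differed from each other beyond these genes. Summed over all rows, the FPKM came to 708058 and 674328 in MYC knockdown replicates 1 and 2, against 739335 and 730732 in wild type replicates 1 and 2. MYC itself stood at 65.0 and 75.8 FPKM in the knockdown libraries, against 82.9 and 82.0 FPKM in wild type, and was not called (limma adjusted p = 0.237). The median absolute log2 difference over all genes was 0.20 between the knockdown libraries and 0.08 between the wild-type libraries. Interferon-stimulated genes stood apart in MYC knockdown replicate 1, and their values are given beside the class I genes below. Markers of epithelial cells summed to 6068 and 5503 FPKM in the knockdown libraries, against 5218 and 5275 FPKM in wild type, with KRT8, KRT18 and KRT19, keratins of simple epithelia, as the most abundant of the 7. The 7 immune cell markers summed to between 0.590 and 0.900 FPKM in the 4 libraries, with PTPRC, the leukocyte marker CD45, and NKG7 at 0 in each. In 7 markers of fibroblasts and endothelium, COL1A1, a collagen chain, held nearly all of the sums of 3.03 to 8.14 FPKM, and 4 were at 0 in every library. In bulk RNA, fewer cells expressing a gene and less RNA of it per cell cannot be told apart.

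Stretches of the RefSeq promoters of class I genes are printed here because they hold matches to the core of the interferon-response element, the DNA motif bound by interferon regulatory factors, or, in HLA-B and HLA-C, to a shorter form of it alone. The core was searched as GAAANNGAAA on both strands, in windows of 250 bases before to 50 after each start site of RefSeq genes on GRCh38.p14. The shorter form, GAANNGAAA, was added after the HLA-B and HLA-C windows had been seen. It can overlap the core, as it does in TAP2. Capitals mark the matched bases, and each sequence runs 5′ to 3′ on the strand of its gene. HLA-E had no window in this table and is named only.
HLA-B, chr6:31357302-31357358, minus strand: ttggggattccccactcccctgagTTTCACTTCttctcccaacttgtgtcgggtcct
HLA-C, chr6:31272211-31272267, minus strand: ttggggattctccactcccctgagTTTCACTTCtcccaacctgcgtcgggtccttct
HLA-F, chr6:29723254-29723311, plus strand: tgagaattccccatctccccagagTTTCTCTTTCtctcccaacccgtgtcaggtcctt
B2M, chr15:44711349-44711412, plus strand: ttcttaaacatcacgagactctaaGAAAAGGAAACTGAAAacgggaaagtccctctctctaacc
TAP1, chr6:32853799-32853862, minus strand: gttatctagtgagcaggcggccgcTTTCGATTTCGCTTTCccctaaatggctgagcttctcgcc
TAP2, chr6:32838764-32838826, minus strand: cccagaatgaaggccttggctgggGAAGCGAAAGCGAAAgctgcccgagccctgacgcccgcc
TAPBP, chr6:33314079-33314122, minus strand: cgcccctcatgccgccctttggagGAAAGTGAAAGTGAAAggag
ERAP1, chr5:96807926-96807955, minus strand: cccgggctccacTTTCACTTTCggtcctgg

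The core was found in windows of 6 of the 8 class I genes in the table (HLA-F, B2M, TAP1, TAP2, TAPBP and ERAP1), and in 3.57% of all 35116 windows. Genes were counted by a match in any of their windows, while the percentages are of single windows. A gene with several start sites thus has more windows in which to match. HLA-B and HLA-C held the shorter form at the matching place, and either form was found in 8 of 8 genes and in 10.6% of all windows. Because the shorter form was taken from the HLA-B and HLA-C windows, the count of 8 was fixed in advance and is no test. Counting the first transcribed base as 1 and the base before it as −1, the match lay at −155 to −147 in HLA-B and at −151 to −143 in HLA-C. In B2M, TAP1 and TAPBP there were 2 overlapping matches of the core, the first beginning at −144 in B2M, at −134 in TAP1 and at −20 in TAPBP. In ERAP1 the core lay at 3 to 12, and RefSeq lists a second ERAP1 start whose window held only the shorter form. TAP1 also has a second start, whose window held neither form. Among the interferon-stimulated genes listed for this work, 13 of 15 with a window held the core, in 17 of their 22 windows. Among the constitutive proteasome genes 0 of 4 did, which is near the 3.57% of all windows. Of the immunoproteasome genes, PSMB8 and PSMB10 held the core and PSMB9 held neither form. RefSeq lists 2 PSMB8 starts. The core lay across 1 of them, at −4 to 6, and the window of the other held neither form. The log2 differences of PSMB8, PSMB10 and PSMB9 from wild type in MYC knockdown replicate 1 were 0.64, 0.08 and 0.46. How the motif relates to these values was not tested. The CCAAT box, searched as CCAAT on both strands, was in 6 of 8 class I genes and in 34.6% of all windows. The letters CACGTG, the E-box that MYC and its partner MAX can bind, were in 0 of 8 class I genes and in 7.26% of all windows. A match is a run of letters and was not measured as a bound site.

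**Figure D1:**
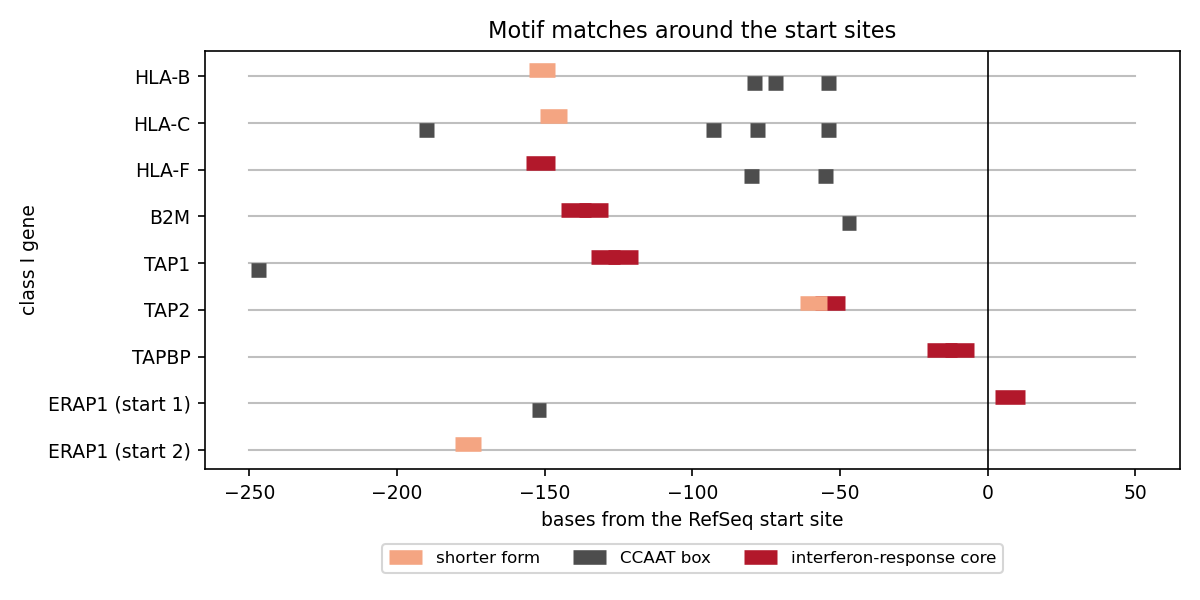
Motif matches in windows around the RefSeq start sites of 8 class I genes (x axis, bases from the start site; each grey line is a window with at least 1 match, the line at 0 is the start). Red bars are the interferon-response core, light bars its shorter form and dark bars the CCAAT box; the core begins at −134 in TAP1 and at 3 in ERAP1.

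The heavy chain genes, which encode the chain that holds the peptide, lie with TAP1, TAP2 and TAPBP on chromosome 6. HLA-B (ENSG00000234745; chromosome 6, 31269491 to 31357188, minus strand, GENCODE release 29 on GRCh38) encodes a classical heavy chain for T cells. It stood at 114 and 61.0 FPKM in MYC knockdown replicates 1 and 2, against 52.2 and 54.1 FPKM in wild type. The groups did not overlap, and replicate 1 stood far above the other 3 libraries. The means were 87.7 ± 37.8 FPKM in the knockdown and 53.1 ± 1.35 FPKM in wild type (SD, n = 2 each). The log2 difference was 0.64 with a standard error of 0.30 (limma adjusted p = 0.263).

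HLA-C (ENSG00000204525; chromosome 6, 31268749 to 31272130, minus strand), the other classical heavy chain of the 9 genes and also a ligand of natural killer cell receptors, was the most abundant heavy chain. It stood at 215 and 129 FPKM in the knockdown replicates 1 and 2, against 107 and 113 FPKM in wild type. The groups did not overlap. The log2 difference was 0.59 with a standard error of 0.25 (limma adjusted p = 0.224). In the annotation the HLA-B gene overlaps HLA-C on the same strand, and heavy chain genes are alike in sequence. How reads were split between them, and how far the alleles of this line differ from the reference, is not known from the sources used here, so single heavy chain values are uncertain.

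HLA-E (ENSG00000204592; chromosome 6, 30489467 to 30494205, plus strand), which shows leader peptides of other class I chains to natural killer cells, differed less. It stood at 110 and 82.1 FPKM in the knockdown replicates 1 and 2, against 75.8 and 77.2 FPKM in wild type. Its groups did not overlap either, and the log2 difference was 0.31 with a standard error of 0.15 (limma adjusted p = 0.281). HLA-F (ENSG00000204642; chromosome 6, 29722775 to 29738528, plus strand), a non-classical heavy chain, stood on both sides of wild type. Its values were 45.9 and 20.0 FPKM in the knockdown replicates 1 and 2, against 27.2 and 26.0 FPKM in wild type. It was the highest of the 4 libraries in replicate 1 and the lowest in replicate 2, so the groups overlapped. The log2 difference was 0.18 with a 95% interval of −0.85 to 1.21 (limma adjusted p = 0.802).

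Together the 4 heavy chain genes summed to 485 and 292 FPKM in the knockdown replicates 1 and 2, against 263 and 270 FPKM in wild type. HLA-C held 44.3% and 44.2% of that sum in the knockdown libraries, against 40.9% and 41.8% in wild type. HLA-B held 23.6% and 20.9%, against 19.9% and 20.0%. HLA-E held a smaller share in replicate 1, at 22.7% and 28.1% in the knockdown libraries, against 28.9% and 28.6% in wild type. These shares compare FPKM, which is per length, between genes of 1 library.

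B2M (ENSG00000166710; chromosome 15, 44711487 to 44718877, plus strand) encodes beta-2 microglobulin, the light chain shared by all class I molecules. It was the most abundant of the 9 genes, at place 132 of all Ensembl rows by its wild-type mean. It stood at 1324 and 878 FPKM in the knockdown replicates 1 and 2, against 786 and 777 FPKM in wild type. The groups did not overlap, and replicate 2 lay much nearer to wild type than to replicate 1. The log2 difference was 0.46 with a standard error of 0.21 (limma adjusted p = 0.239). B2M lies on another chromosome than the heavy chains and was 1.69 times the wild-type mean FPKM in replicate 1. Its ratio to the summed heavy chains was 2.73 and 3.01 in the knockdown libraries, against 2.99 and 2.88 in wild type.

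TAP1 and TAP2 encode the paired subunits of the transporter that moves peptides into the endoplasmic reticulum. TAP1 (ENSG00000168394; chromosome 6, 32845209 to 32853978, minus strand) stood at 63.0 and 35.3 FPKM in the knockdown replicates 1 and 2, against 37.5 and 38.4 FPKM in wild type. TAP2 (ENSG00000204267; chromosome 6, 32821833 to 32838780, minus strand) stood at 70.0 and 46.4 FPKM in the knockdown replicates 1 and 2, against 53.4 and 41.9 FPKM in wild type. For both, replicate 1 was the highest library and replicate 2 lay below at least 1 wild-type library. The log2 differences were 0.31 with a standard error of 0.28 for TAP1 and 0.26 with a standard error of 0.23 for TAP2 (limma adjusted p = 0.531 and 0.522). TAP1 passed from overlapping to separate groups when every library was scaled to the same FPKM sum, where its log2 difference from wild type in replicate 2 was 0.03 in place of −0.10. TAP2 has a second row of low values under the same symbol (ENSG00000250264), at 2.60 and 4.21 FPKM in the knockdown libraries, against 1.04 and 1.42 FPKM in wild type.

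TAPBP (ENSG00000231925; chromosome 6, 33299694 to 33314387, minus strand) encodes tapasin, which bridges the transporter and the heavy chain during loading. It stood at 102 and 68.9 FPKM in the knockdown replicates 1 and 2, against 51.2 and 56.0 FPKM in wild type. Both knockdown libraries lay clear of both wild-type libraries. The log2 difference was 0.64 with a standard error of 0.20 and a 95% interval of 0.10 to 1.18. Its unadjusted p of 0.0288 in limma was the smallest of the 9 genes and the adjusted p was 0.148. It was the 1 gene of the 9 with an unadjusted p under 0.05, against 14.4% of all genes that were higher with such a p.

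ERAP1 (ENSG00000164307; chromosome 5, 96760810 to 96808100, minus strand) encodes the peptidase of the endoplasmic reticulum that shortens peptides to fit the heavy chain. It stood at 30.6 and 34.8 FPKM in the knockdown replicates 1 and 2, against 25.0 and 28.2 FPKM in wild type. The groups did not overlap, and replicate 2 was the higher of the knockdown libraries. The log2 difference was 0.29 with a standard error of 0.11 (limma adjusted p = 0.201). ERAP2, its close relative, stood at 2.53 and 2.78 FPKM in the knockdown libraries, against 1.88 and 1.66 FPKM in wild type, with replicate 2 again the higher. ERAP2 was chosen for this comparison after its values were seen.

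**Figure D2:**
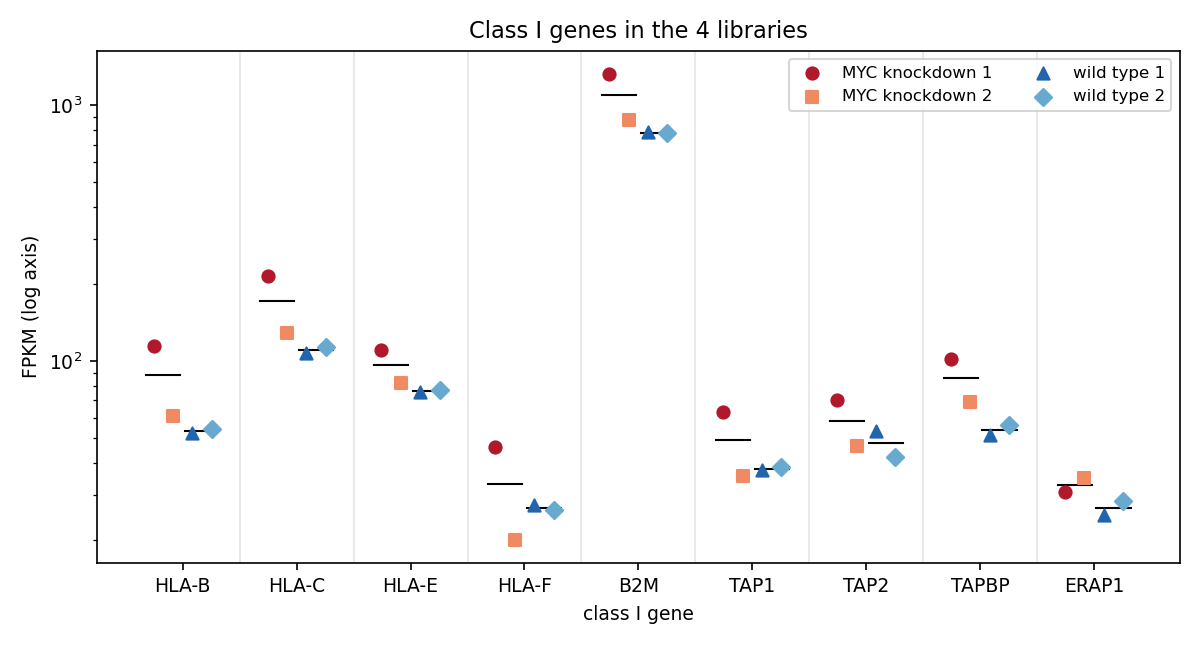
FPKM (log axis) of 9 class I genes in each library (points; red and orange, MYC knockdown replicates 1 and 2; blue, wild type replicates 1 and 2; black lines, group means). MYC knockdown replicate 1 is the highest library for 8 genes, from HLA-F at 45.9 FPKM to B2M at 1324 FPKM, and ERAP1 is highest in replicate 2 at 34.8 FPKM.

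The order of the levels was much the same in both groups. B2M came first, at 1101 ± 315 FPKM in the knockdown and 781 ± 6.53 FPKM in wild type (SD, n = 2 each), and HLA-C followed, at 172 ± 60.4 FPKM in the knockdown and 110 ± 3.79 FPKM in wild type. HLA-E came next, at 96.0 ± 19.6 FPKM in the knockdown and 76.5 ± 0.962 FPKM in wild type. In the knockdown, HLA-E, HLA-B, TAPBP, TAP2, TAP1, HLA-F and ERAP1 followed in falling order, and the values of each overlapped those of the next. In wild type the pairs TAPBP and HLA-B, HLA-B and TAP2, and HLA-F and ERAP1 overlapped, and the other neighbours did not.

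Over the 9 genes the groups did not overlap for 6, all higher in the knockdown, against 33.4% of all genes higher and 25.2% lower without overlap. An exact permutation test of 2 libraries against 2 cannot go below a two-sided p of 0.33, so no single gene could pass it. The median log2 difference between the groups was 0.31 over the 9 genes and 0.04 over all genes. Limma called 0 of the 9 genes and 0% of all genes at an adjusted p under 0.05. An unadjusted limma p under 0.05 was found for 1 of the 9 and 3354 of all 12953 genes. With equal FPKM sums it was found for 5 of the 9 and 3904 of 12948 genes. At an adjusted p under 0.10 limma called 0 of the 9 and 10.4% of all genes. Without MYC knockdown replicate 2, limma called 7 of the 9 as higher (all but TAP2 and ERAP1), against 15.2% of all genes. Without MYC knockdown replicate 1, it called HLA-C, B2M and TAPBP as higher, against 12.5% of all genes, and HLA-F as lower, against 13.6%. In those fits the spread rests on the close wild-type pair, and the lone knockdown library is assumed to vary like it.

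Set against the wild-type mean one library at a time, the 9 genes had a median log2 difference of 0.76 in MYC knockdown replicate 1 and 0.17 in replicate 2, and the medians of all genes were 0.07 and 0.01. With equal FPKM sums the median of the 9 was 0.82 in replicate 1 and 0.30 in replicate 2, and those of all genes were 0.13 and 0.12. The values in replicate 1 ran from 0.20 in ERAP1 to 1.09 in HLA-B. Those in replicate 2 ran from −0.39 in HLA-F to 0.38 in ERAP1. HLA-F held the largest difference between the knockdown replicates, 1.16 on the log2 scale, and 1.24% of all genes had a larger one in that direction. In ERAP1 the same difference was −0.18. Replicate 1 stood above replicate 2 for 8 of the 9 genes, against 60.5% of all genes. Other sets described below shared that direction, with 6 of 6 genes of the immunoproteasome and its activator and 6 of 6 constitutive proteasome genes. It was less common among the loading partners, at 5 of 8, and the natural killer and checkpoint ligands, at 6 of 10. The median of replicate 1 minus replicate 2 was 0.59 over the 9 genes, against 0.46 over the immunoproteasome list and 0.26 over the constitutive one. All 9 genes stood above the wild-type mean in replicate 1 under each of 3 other scalings, and 6 of 9 did in replicate 2 as deposited. The medians of all genes lay above the wild-type mean too, at 0.07 and 0.01 as deposited. The 6 of 9 in replicate 2 is thus no result about these genes. In replicate 2 the differences of TAP1 and TAP2 turned from −0.10 and −0.03 to 0.03 and 0.10 with equal FPKM sums, while HLA-F stayed below at −0.27.

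**Figure D3:**
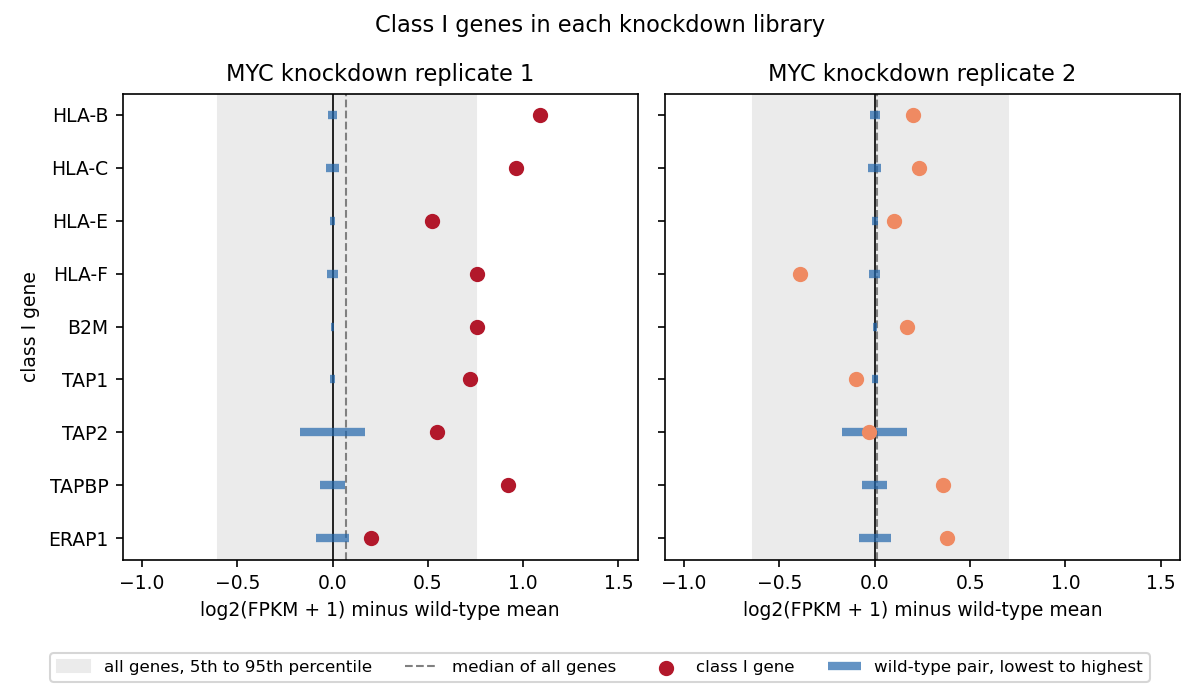
Difference of each knockdown library from the wild-type mean on the log2(FPKM + 1) scale for 9 class I genes (points; left, MYC knockdown replicate 1; right, replicate 2; blue bars, the wild-type pair; grey band, 5th to 95th percentile of all genes; dashed line, median of all genes). In replicate 1 all points lie above 0, at 0.20 to 1.09, and in replicate 2 they lie between −0.39 and 0.38, with HLA-F, TAP1 and TAP2 below 0.

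Interferon-stimulated genes outside class I stood high in the same library. Of 20 listed, 19 were more than 0.5 above the wild-type mean on the log2 scale in MYC knockdown replicate 1 and 1, IFI27, was in replicate 2. The listed genes that were not tested stayed under 1 FPKM in wild type. Of the 14 tested, 14 were past that difference in replicate 1, against 12.1% of all genes tested. In replicate 2, 1 of the 14 was, against 9.88% of all genes tested. IFI27, named after its values were seen, reached 1 FPKM in the knockdown libraries alone and passed the filter on low values through them. Without it, 13 genes were tested, and 13 were past that difference in replicate 1 and 0 in replicate 2. The median log2 difference of the 14 tested genes was 2.71 in replicate 1 and 0.02 in replicate 2, and 2.56 and 0.00 without IFI27. The 20 listed genes summed to 1501 and 229 FPKM in the knockdown libraries, against 250 and 245 FPKM in wild type. BST2, tetherin, stood at 216 and 84.2 FPKM in the knockdown libraries, against 106 and 109 FPKM in wild type. ISG15, a ubiquitin-like protein, stood at 308 and 57.1 FPKM, against 53.9 and 49.0 FPKM. IFI6, an interferon-induced mitochondrial protein, stood at 375 and 11.6 FPKM, against 11.1 and 10.2 FPKM in wild type. All 3 were thus far higher in replicate 1 than in replicate 2, by more than the class I genes were. Limma called 0 of the 14 genes tested, IFI27 included, at an adjusted p under 0.05, and 0 had an unadjusted p under 0.05. The part of the interferon-stimulated genes in the class I values was not tested.

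Among 15 regulators of class I transcription, 2 were more than 0.5 above the wild-type mean in MYC knockdown replicate 1, STAT2, a signal transducer of interferon receptors, and IRF9, the interferon regulatory factor that pairs with it. That count is near the 12.1% of all genes. STAT2 stood at 55.0 and 27.0 FPKM in the knockdown libraries, against 16.9 and 15.5 FPKM in wild type, and IRF9 at 77.8 and 14.6 FPKM, against 8.39 and 10.1 FPKM in wild type. Both genes, named after their values were seen, had log2 differences from wild type of 1.70 and 2.95 in replicate 1, and of 0.70 and 0.61 in replicate 2. For both, the 2 knockdown libraries lay above the wild-type libraries. NLRC5, the transactivator of class I genes, was low in all libraries, at 3.49 and 3.04 FPKM in the knockdown, against 1.83 and 3.03 FPKM in wild type. IRF1, an interferon regulatory factor, stood at 48.3 and 40.2 FPKM, against 35.3 and 34.9 FPKM. RELA, an NF-kB subunit, and RFXANK, a subunit of the RFX complex that binds class I promoters, had log2 differences between the groups of 0.00 and −0.14. The list had a median log2 difference of 0.03 in replicate 1 and −0.02 in replicate 2, and of 0.08 and 0.11 with equal FPKM sums, so its medians had no direction that held under each scaling. Limma called 0 of 15 at an adjusted p under 0.05, and at an unadjusted p under 0.05 there were 2 higher, IRF1 and STAT2, near the 14.4% of all genes, and 3 lower, NFYA, RFX5 and CREB1, against 11.5% of all genes. The lower genes are promoter-binding factors, named after their values were seen, with log2 differences between the groups of −0.38, −0.28 and −0.46.

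Among 9 interferon receptor and signalling genes, the median log2 difference was 0.17 in replicate 1 and 0.10 in replicate 2. IFNGR1, a chain of the interferon gamma receptor, stood at 133 and 126 FPKM in the knockdown libraries, against 117 and 118 FPKM in wild type. IFNGR2, its partner chain, stood at 52.1 and 69.5 FPKM, against 68.0 and 68.5 FPKM. JAK1, a kinase of both interferon pathways, stood at 46.0 and 43.0 FPKM, against 35.2 and 37.3 FPKM in wild type. The median of replicate 1 minus replicate 2 was 0.14 on the log2 scale over these 9 genes, against 0.59 over the class I genes. Limma called 0 of 9, and 2, JAK1 and SOCS3, a feedback inhibitor of JAK kinases, were higher with an unadjusted p under 0.05, against 14.4% of all genes. SOCS3 is named after its values were seen.

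The immunoproteasome, a form of the proteasome that cuts peptides suited to class I, has 3 catalytic subunits of its own. PSMB8 stood at 72.1 and 41.0 FPKM in the knockdown libraries, against 47.2 and 44.6 FPKM in wild type. PSMB9, whose gene lies head to head with TAP1, stood at 85.9 and 51.8 FPKM, against 59.2 and 65.0 FPKM. PSMB10, the remaining catalytic subunit, stood at 22.0 and 18.0 FPKM, against 21.6 and 19.9 FPKM in wild type. All 3 were highest in replicate 1 and lowest in replicate 2, and the groups overlapped. The ratio of PSMB8 to PSMB5, the constitutive subunit it replaces, was 0.753 and 0.544 in the knockdown libraries, against 0.510 and 0.468 in wild type. For PSMB9 and PSMB6 it was 0.430 and 0.319, against 0.318 and 0.346 in wild type. For PSMB10 and PSMB7 it was 0.107 and 0.0900, against 0.101 and 0.0947. PSME1 and PSME2, the subunits of the proteasome activator that interferon gamma induces, differed from wild type by 0.57 and 0.16 on the log2 scale in replicate 1 and by 0.05 and −0.23 in replicate 2. POMP, which helps to assemble proteasomes, stood lower in both knockdown libraries, at 134 and 125 FPKM, against 159 and 153 FPKM in wild type. Limma called 0 of these 6 genes, and POMP, lower, was the 1 with an unadjusted p under 0.05, against 11.5% of all genes that were lower with such a p. The 6 constitutive proteasome genes had median log2 differences of 0.04 and −0.14 in replicates 1 and 2. Of them, PSMA1, PSMB7 and PSMB6 had log2 differences between the groups of 0.05, −0.06 and −0.05, and 0 of 6 had an unadjusted p under 0.05 in limma.

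The 8 partners of class I loading and folding outside the 9 genes had no common direction, with a median log2 difference between the groups of −0.04, and of 0.05 with equal FPKM sums. CALR, the chaperone calreticulin of the loading complex, stood at 542 and 516 FPKM in the knockdown libraries, against 716 and 690 FPKM in wild type, a log2 difference of −0.41 with a standard error of 0.07 (limma adjusted p = 0.0665). PDIA3, the thiol oxidoreductase ERp57 of that complex, stood at 237 and 204 FPKM, against 253 and 258 FPKM. HSPA5, the general chaperone BiP, stood at 187 and 177 FPKM, against 263 and 260 FPKM, a log2 difference of −0.52 with a standard error of 0.07 (limma adjusted p = 0.0569). In these 3 genes both knockdown libraries lay below both wild-type libraries, the side opposite to TAPBP. Of the 8 genes in the list, limma called 0. With an unadjusted p under 0.05, 1 was higher, LNPEP, a relative of ERAP1, against 14.4% of all genes, and 2 were lower, CALR and HSPA5, against 11.5% of all genes. The groups did not overlap for 3 that were higher, TAPBPL, ERAP2 and LNPEP, and for 4 that were lower, the 3 chaperones above and CANX, calnexin, which overlapped at a log2 difference of 0.01 with equal FPKM sums. The shares of all genes without overlap were 33.4% higher and 25.2% lower, so the count of higher genes was near that of all genes. LNPEP, TAPBPL and CANX are named after their values were seen.

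**Figure D4:**
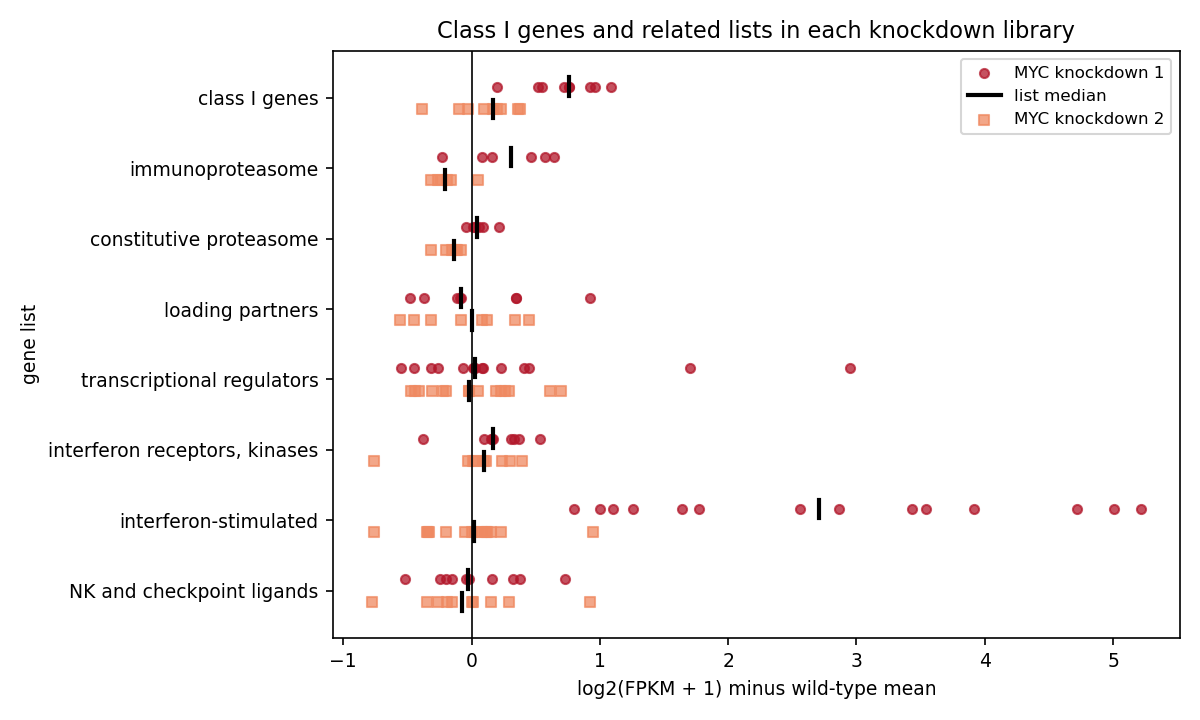
Difference of each knockdown library from the wild-type mean on the log2(FPKM + 1) scale for tested genes of 8 lists (points; red, MYC knockdown replicate 1; orange, replicate 2; black bars, list medians). In replicate 1 the medians are 0.76 for class I genes and 2.71 for interferon-stimulated genes, and in replicate 2 they are 0.17 and 0.02. Without IFI27 the interferon-stimulated medians are 2.56 in replicate 1 and 0.00 in replicate 2.

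Of 10 listed MHC class II genes, which serve antigen-presenting immune cells, 3 were tested, and the other 7 stayed under 1 FPKM in all 4 libraries. CD74, the invariant chain, stood at 13.4 and 6.36 FPKM in the knockdown libraries, against 12.2 and 11.9 FPKM in wild type. HLA-DRB1, a class II beta chain, stood at 8.33 and 3.27 FPKM, against 3.47 and 3.64 FPKM. HLA-DMA, a chain of the class II loading factor, stood between 1.11 and 1.90 FPKM in the 4 libraries. Replicate 1 was the highest library for all 3. CIITA, the class II transactivator, named after its values were seen, was at most 0.380 FPKM. Limma called 0 of the 3, and 0 had an unadjusted p under 0.05.

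The listed natural killer and checkpoint ligands had no common direction. CD47, a signal against engulfment, stood at 66.2 and 67.4 FPKM in the knockdown libraries, against 64.3 and 70.4 FPKM in wild type. PVR, a ligand of the receptors DNAM-1 and TIGIT, stood at 30.4 and 34.4 FPKM, against 42.6 and 45.6 FPKM. NECTIN2, a related ligand, stood at 43.8 and 31.5 FPKM, against 35.5 and 34.4 FPKM in wild type. Of 10 tested, limma called 0. With an unadjusted p under 0.05, 1 was higher, PDCD1LG2, the checkpoint ligand PD-L2, and 2 were lower, PVR and MICB, a ligand of NKG2D. The shares of all genes with such a p were 14.4% higher and 11.5% lower, so these counts are no result about the list. PDCD1LG2, named like MICB after its values were seen, stood at 11.3 and 13.1 FPKM in the knockdown libraries, against 6.29 and 6.61 FPKM in wild type.

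Most of the class I genes lie within a 3.59 Mb stretch of chromosome 6 from the start of HLA-F to the end of TAPBP. The 80 other protein-coding genes tested there, outside the lists and the HLA family, had median log2 differences of 0.08 in MYC knockdown replicate 1 and −0.11 in replicate 2. In replicate 1, 10 of the 80 were more than 0.5 above wild type, near the 12.1% of all genes. Replicate 1 stood above replicate 2 for 62 of the 80, against 60.5% of all genes, with a median log2 difference of 0.22. The genes whose profile over the 4 libraries was most like the mean profile of the 9 class I genes, by Euclidean distance of log2(FPKM + 1) centred on the wild-type mean, included PTRF, TPRG1L, EIF4ENIF1 and C14orf159, at distances of 0.029 to 0.080. PTRF, a coat protein of caveolae also called cavin-1, stood at 118 and 78.8 FPKM in the knockdown libraries, against 72.7 and 72.8 FPKM in wild type. EIF4ENIF1, a transporter of the translation factor eIF4E, stood at 16.8 and 10.3 FPKM, against 9.38 and 9.37 FPKM in wild type. With 4 libraries, such likeness is a description of these samples.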

How the data were processed

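The authors deposited 1 table of FPKM, with 1 column for each of 4 libraries; the unit was inferred from the values, and TPM with rows left out cannot be told from it with certainty. STAR and RSEM were used, per the submitters' processing notes. The sources used here give neither their versions nor the genome build, the annotation or the depth, so no counting interval is given and the precision rests on 2 libraries per group. Groups come from the sample titles. Of 344810 rows, the 53777 Ensembl rows were used; for a repeated symbol (TAP2) the row with the highest mean was taken. Genes that reached 1 FPKM in 2 or more libraries were tested on the log2(FPKM + 1) scale, which understates changes of low genes, with limma 3.58.1 in R 4.3.3 (eBayes with a mean trend, Benjamini-Hochberg, threshold 0.05). Log2 differences are knockdown minus wild type. The fit was also run on simulated data with equal spread in both groups. In these libraries the knockdown pair differed more than the wild-type pair, so that run does not show how many changes were missed here. Positions come from GENCODE release 29, matched by gene ID, and sequences from RefSeq on GRCh38.p14.

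The members and the 11 other lists were chosen with earlier results of these data known. The genes named were the 9 members, MYC, the 3 tested genes with the highest mean FPKM of each list, PSMB8, PSMB9, PSMB10, NLRC5, IRF1, and the protein-coding genes with a mean of at least 5 FPKM most like the members; 2 genes of this rule are not reported here. Of the list genes, 1 (PECAM1) was not analysed here. Alternatives were the filter, the pseudocount, 3 scalings, a replicate block, each library left out, a threshold of 0.10, no mean trend and summed rows of a repeated symbol.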

Additional observations from a re-analysis of the deposited data

How the results depend on the processing

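Limma called 0 genes and 0 class I genes with no filter, a pseudocount of 0.1, equal FPKM sums, quantile normalization and no mean trend. It called 310 genes with a mean of at least 5 FPKM, 314 with median of ratios and 1349 at an adjusted p under 0.10, and 0 class I genes in each. Leaving out each library in turn gave 0 to 3413 genes, 0 to 7 class I genes and a class I median log2 difference between the groups of 0.17 to 0.76. The high counts came without 1 knockdown library, where only the wild-type pair gives the spread. Without MYC knockdown replicate 1, the log2 differences of HLA-F, TAP1 and TAP2 were −0.39, −0.10 and −0.03, below 0, and without MYC knockdown replicate 2 they were 0.76, 0.72 and 0.55. The class I median in MYC knockdown replicate 1 was 0.82 with equal FPKM sums, 0.68 with median of ratios and 0.70 with quantile normalization, against 0.76 as deposited. In replicate 2 it was 0.30 with equal FPKM sums and 0.22 with quantile normalization, against 0.17. Equal FPKM sums moved the median log2 difference of all genes from 0.04 to 0.12.

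The labels do not say whether same-numbered libraries were paired. Deviations of same-numbered libraries had a correlation of −0.006 over genes, which cannot settle whether they were. With the replicate block limma called 0 genes and 0 class I genes, and 4 class I genes had an unadjusted p under 0.05, against 1 without it. Over all genes the counts with such a p were 2928 with the block and 3354 without it. Without the block, 5 class I genes and 3904 of all genes had such a p with equal FPKM sums. With quantile normalization the numbers were 2 and 3340. More than 0.5 above wild type there were 6 class I genes in replicate 1 with median of ratios, against 8, and 1 in replicate 2 with equal FPKM sums, against 0. Since 2 libraries per group set the spread, a p that misses the threshold does not show that class I levels were alike.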
